A study of Mus musculus with 40 samples.

Results

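Mouse CD4+ T cells that had been driven to the Th2 state and then moved to Th1 medium were followed by RNA sequencing, in cells labelled Setdb1 KO (C57BL/6 Setdb1-/-). The comparison set 3 libraries of cells moved to Th1 medium (Th2-Th1) against 3 libraries of Th2 cells taken on day 6 (Th2). These 6 libraries were chosen by their labels from the 18 RNA libraries and the 40 samples in the study. Spleen CD4+ T cells had been stimulated on plates coated with 10 ug/mL anti-CD3 antibody together with 1 ug/mL anti-CD28, 50 ng/mL IL-4 and 10 ug/mL of an antibody against IFN-gamma. Both antibodies to CD3 and CD28 were left out from day 3, when 30 IU/mL IL-2 was added, and Th2 cells were taken on day 6. The Th2-Th1 cells were washed on day 6 and placed in medium with 10 ng/mL IL-12 and 10 ug/mL of an antibody against IL-4. Their label gives 2 culture days. The Th2 libraries thus stand at the time of transfer, so the change of medium and further time in culture cannot be told apart. The labels do not say whether CD3 and CD28 were stimulated again, whether IL-2 stayed in the medium, which exons the Setdb1 allele lacks, or whether the replicates were separate mice. P-values therefore measure the spread between libraries, which may be technical. That spread was pooled over all 18 RNA libraries, those of naive cells of both genotypes included. The 5 libraries of the same cultures of wild-type (WT) C57BL/6 cells, 3 Th2 and 2 Th2-Th1, served to test whether the change differed between genotypes.

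Helper T cells take on a fate under cytokines and then hold it with the help of transcription factors and chromatin. In Th2 cells IL-4 acts through STAT6 and GATA3, and the cells make IL-4, IL-5 and IL-13. In Th1 cells IL-12 acts through STAT4, and T-bet, encoded by Tbx21, promotes Ifng and the IL-12 receptor chain Il12rb2. IFN-gamma in turn induces IRF1, guanylate-binding proteins, immunity-related GTPases and the machinery that loads peptide on MHC class I. SETDB1 is a methyltransferase that places trimethylation on lysine 9 of histone H3, a mark of silent chromatin, and committed Th2 cells resist conversion when IL-12 replaces IL-4.

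The values were the reads in each gene, scaled by a library's size factor, and are here called normalized reads. The Th2 libraries labelled Setdb1 KO held 36260766 to 44718627 reads in genes and the Th2-Th1 libraries 37208280 to 37603455, against 10140907 to 19840621 in the 5 WT libraries. Within each labelled KO group, log2 values correlated at 0.983 to 0.991 between libraries, and no pair agreed within sampling noise. Ribosomal protein genes held 1.94% to 2.05% of reads in Th2 and 1.87% to 2.03% in Th2-Th1 labelled KO. The share was 5.41% to 6.08% in WT Th2 and 2.43% to 2.57% in WT Th2-Th1, so it moved with the switch in WT. The part of depth and of this share in the differences between genotypes was not tested. In bulk RNA, fewer cells of a type and less RNA per cell cannot be told apart.

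Setdb1 itself was read in every library first. It stood at 8069.6, 9044 and 8342 normalized reads in the Th2 and at 7389, 5429.8 and 5914 in the Th2-Th1 libraries labelled Setdb1 KO. In WT it stood at 694, 933 and 841 in Th2 and at 1611 and 1594 in Th2-Th1. Every library labelled Setdb1 KO was above every WT library, against what the label would have for the whole transcript, and a count over a whole gene does not show which exons were read. The libraries are therefore called labelled KO below. Between the labelled KO groups Setdb1 fell by 0.45 on the log2 scale (SE 0.12, limma adjusted p = 0.00719), and without Th2-Th1 replicate 2 the value was -0.36 with an adjusted p of 0.0573. In WT it rose by 0.97 (limma adjusted p = 5.45e-06).

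On transfer to Th1 medium, the labelled KO cells gained a broad set of Th1, interferon-induced, chemokine, cytotoxic and inhibitory receptor transcripts, and at the same time made more of the Th2 cytokine transcripts. Tbx21 and Ifng were among the largest rises of all genes. Transcripts of Gata3, Stat4 and the IL-4 receptor chain Il4ra fell, and so did 12 of 23 mitosis genes. Gene lists and their members were chosen with earlier results of these data known, so list counts here and below are a description. Of 17254 genes tested, 4604 passed an adjusted p of 0.05 (limma with Benjamini-Hochberg adjustment, 26.7% of all), 2251 higher (13.0%) and 2353 lower (13.6%). At least a 2-fold change as well was seen for 1132 genes that rose (6.56%) and 1008 that fell (5.84%). The 3 Th2 and 3 Th2-Th1 values did not overlap for 8508 genes (49.3%). All log2 changes below are Th2-Th1 minus Th2 on log2 of the value plus 1, which understates the change of low genes. The median over all genes tested was 0 on this scale. List medians below are to be read beside it and beside the 13.0% and 13.6% above. A gene with almost no reads in Th2 could pass the filter through other libraries, and could then only be called higher. A gene with almost no reads in Th2-Th1 could likewise only be called lower.

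Tbx21, the gene of the master regulator of the Th1 fate, stood at 17.9, 13.4 and 8.49 normalized reads in the 3 Th2 libraries and at 1941, 2086 and 2485 in the 3 Th2-Th1 libraries. The groups did not overlap, and all 3 Th2-Th1 libraries were close to each other. The log2 change was 7.298 (SE 0.73, limma adjusted p = 3.06e-07). Ifng, which encodes IFN-gamma, went from 114, 74.3 and 59.5 to 6251, 14972 and 15356 normalized reads, with Th2-Th1 replicate 1 the lowest of its group. Its log2 change was 7.13 (SE 0.69, limma adjusted p = 1.82e-07). Il12rb2, the inducible IL-12 receptor chain, read 81.5, 90.9 and 106 in Th2 and 5560.3, 6427 and 7488 in Th2-Th1. Again no Th2 library approached the Th2-Th1 libraries, and the log2 change was 6.11 (SE 0.43, limma adjusted p = 2.41e-09). Il12rb1, the shared chain of the IL-12 and IL-23 receptors, rose from 2403, 2362 and 2038 to 6286, 4618 and 4643 (log2 change 1.18, limma adjusted p = 0.000512).

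**Figure D1:**
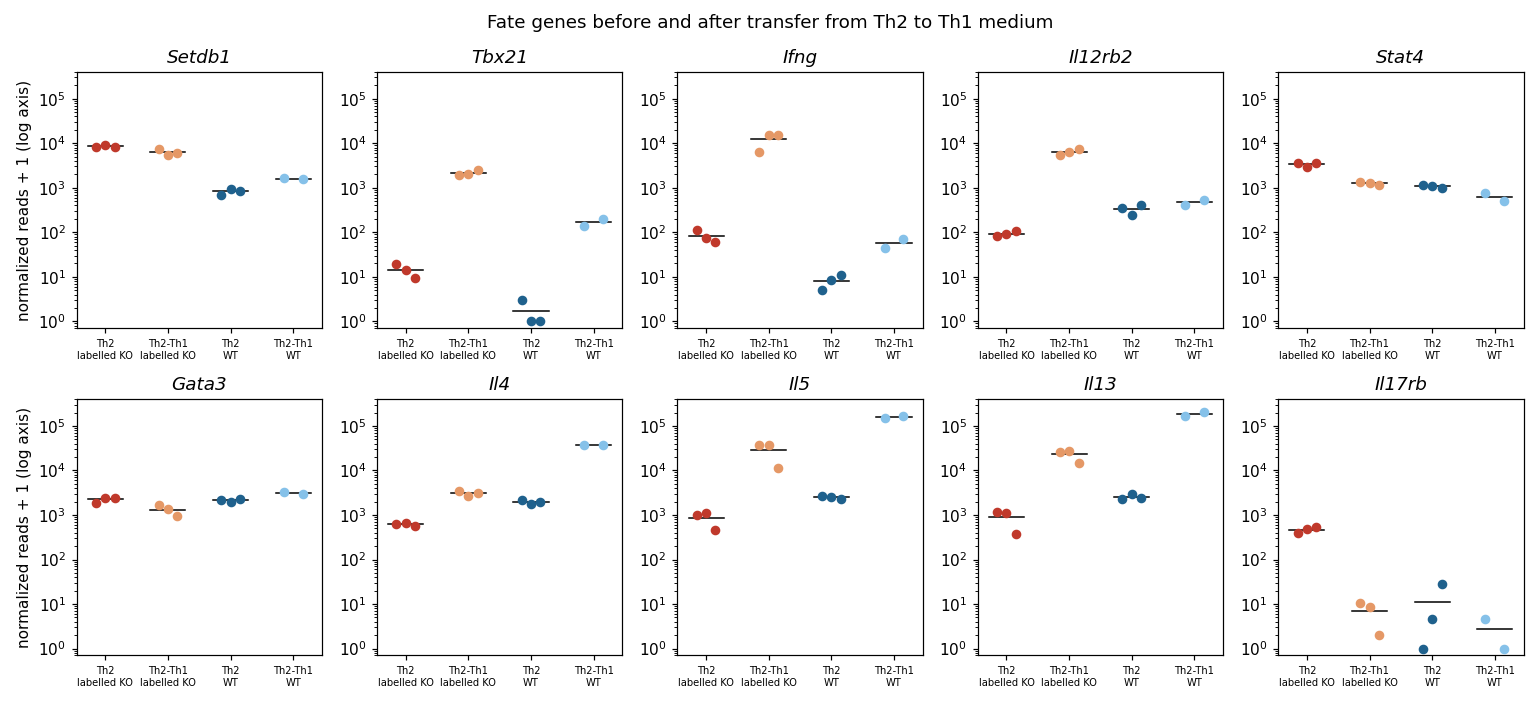
Normalized reads plus 1 on a log axis for 10 genes in each library of the 4 groups, with points for libraries and bars for group means. Tbx21, Ifng and Il12rb2 are highest in the Th2-Th1 libraries labelled KO, while Il4, Il5 and Il13 rise in both genotypes and reach higher values in WT.

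Of the 13 Th1 transcription factors listed, all were tested, 11 rose and 2 fell, with a median log2 change of 2.04. Irf8, an interferon-responsive factor, went from 166, 124 and 102 to 1824, 1742 and 1910.2 normalized reads. The interferon-induced factor Irf1 went from 1587, 1727 and 2129 to 8151, 7185 and 6875. In both genes the lowest Th2-Th1 library was above the highest Th2 library, and the log2 changes were 3.82 and 2.04 (limma adjusted p = 3.52e-10 and 5.56e-11). Bhlhe40, a regulator of cytokine production in helper T cells, rose by 3.64 on the log2 scale (limma adjusted p = 6.21e-06). Hlx, a homeobox partner of T-bet, rose by 3.11 (limma adjusted p = 0.000811), and Runx3, which helps T-bet to activate Ifng and to silence Il4, by 0.93 (limma adjusted p = 0.00272). Twist1, known to limit Th1 cytokines, rose by 3.41 from 7.95, 5.37 and 6.49 normalized reads (limma adjusted p = 0.000811).

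The 2 members that fell were Stat4 and Eomes. Stat4, the factor through which the IL-12 receptor signals, went from 3605, 2933 and 3684 to 1369, 1256 and 1143 normalized reads. No library of the groups overlapped, and the log2 change was -1.44 (SE 0.14, limma adjusted p = 1.42e-07). Eomes, a T-box relative of Tbx21, went from 153, 86.9 and 83.9 to 12.7, 18.5 and 42.9 (log2 change -2.202, limma adjusted p = 0.0178). Its call was lost without Th2 replicate 1 (-1.93), without Th2-Th1 replicate 1 (-1.84) and without Th2-Th1 replicate 2 (-2.09).

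Among 12 Th1 receptors, 5 rose and 2 fell, with a median log2 change of 0.725. Havcr2, which encodes the inhibitory receptor TIM-3 of Th1 cells, went from 280.1, 314 and 233 to 10808, 12276 and 8258 normalized reads. The groups were apart, with a log2 change of 5.23 (limma adjusted p = 7.06e-06). Cxcr3, the chemokine receptor typical of Th1 cells, stayed low, at 17.1, 14.3 and 9.99 in Th2 and 15.2, 19.03 and 21.2 in Th2-Th1, and did not pass the test (limma adjusted p = 0.794). The IL-18 receptor chains were also short of the threshold: Il18r1 had a log2 change of 0.91 (limma adjusted p = 0.0503) and Il18rap of 0.39 (limma adjusted p = 0.462). Il18r1 lay at the threshold and passed in 7 other settings: without Th2-Th1 replicate 1 (1.25), with a pseudocount of 5, with a mean of 50 or more, by edgeR, by DESeq2, and in the 6 labelled KO libraries with and without a replicate block (adjusted p from 0.00415 to 0.0434). Il18rap passed with that block alone (adjusted p = 0.0483). The IFN-gamma receptor chain Ifngr2 fell by 1.49 on the log2 scale (limma adjusted p = 1.39e-06), and the IL-27 receptor chain Il27ra fell by 0.997 (limma adjusted p = 3.36e-07).

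Of 14 Th1 effectors, 11 rose and none fell (median log2 change 2.62). The chemokine gene Ccl4 had the largest rise of all genes that met the naming rule, from 19.5, 21.04 and 19.98 to 5468, 6072 and 5206 normalized reads (log2 change 8.04, SE 0.40, limma adjusted p = 2.72e-11). Its neighbour in function Ccl3 went from 29.00, 30.4 and 35.5 to 5508, 8081 and 4891 (log2 change 7.53, limma adjusted p = 3.73e-08). Fasl, the ligand that triggers death through FAS, rose by 4.12 on the log2 scale (limma adjusted p = 9.26e-09). Ly6c1 rose by 4.33 (limma adjusted p = 2.18e-07), while its near-identical neighbour Ly6c2 read 1176, 1658 and 1794 in Th2 and 1761, 705 and 1315 in Th2-Th1 and did not pass (limma adjusted p = 0.794). The sources used here do not say how reads were shared between such copies.

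The Th2 cytokine genes did not go down. Of 10 listed, 6 rose and none fell (median log2 change 2.18). Il4 went from 621, 663 and 567 to 3516, 2669 and 3117 normalized reads (log2 change 2.32, SE 0.27, limma adjusted p = 1.91e-06). Il5, the growth factor of eosinophils, went from 997, 1079.9 and 453 to 37695, 37102 and 11627. Il13, which acts on epithelium and smooth muscle, went from 1166, 1115 and 366 to 26379.5, 27579 and 14766. Replicate 3 was the lowest of its group for Il5 and Il13 in both media, and all Th2-Th1 libraries were above all Th2 libraries, with log2 changes of 5.01 (SE 0.50) and 4.82 (SE 0.37; limma adjusted p = 2.68e-07 and 9.71e-09). Il3, a growth factor for myeloid precursors, rose by 7.595 from 9.54, 11.2 and 11.5 normalized reads (limma adjusted p = 3.58e-11), Areg, an epidermal growth factor family member, by 3.63 (limma adjusted p = 0.00103), and Il10 by 2.03 (limma adjusted p = 0.00504). Il9 read 2.38, 20.6 and 8.99 in Th2 and 6.85, 23.5 and 5.42 in Th2-Th1, with overlapping groups (limma adjusted p = 0.919).

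Among 14 Th2 transcription factors, 6 rose and 2 fell, with a median log2 change of 0.438. Gata3, the master regulator of the Th2 fate, went from 1883, 2467 and 2371 to 1634, 1338 and 931 normalized reads. The groups were apart by a narrow margin, with Th2-Th1 replicate 3 the lowest, and the log2 change was -0.81 (SE 0.20, limma adjusted p = 0.005). Batf, an AP-1 factor, fell by 1.04 on the log2 scale (limma adjusted p = 1.99e-05). Maf, which activates Il4, rose by 1.36 (limma adjusted p = 0.000341), and the repressor Gfi1 by 1.32 (limma adjusted p = 0.000306). Junb rose by 1.15 (limma adjusted p = 0.014), but its call was lost without Th2 replicate 1 (1.07) and without Th2-Th1 replicate 1 (0.99). The largest rise of the list was that of Bhlhe41 (3.08, limma adjusted p = 0.0393), from 6.36, 1.34 and 0 normalized reads in Th2. Its call was lost with no filter, by DESeq2, and with any 1 library left out except Th2 replicate 1. Stat6, which relays IL-4 signals, had a log2 change of 0.26 and did not pass (limma adjusted p = 0.0714), but it passed by DESeq2, in the 6 labelled KO libraries alone, in these with a replicate block and in the 11 Th2 and Th2-Th1 libraries (adjusted p = 0.0405, 0.0369, 0.0435 and 0.0321).

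Of 12 Th2 receptors, 11 were tested, 3 rose and 3 fell, with a median log2 change of -0.828. Il17rb, the receptor chain for IL-25, went from 401, 471 and 529.6 to 9.78, 7.51 and 0.985 normalized reads (log2 change -6.36, SE 0.98, limma adjusted p = 5.74e-05). Il4ra went from 38386, 38595 and 38411 to 14828, 11790.3 and 11747 (log2 change -1.597, SE 0.10, limma adjusted p = 3.52e-10). Il1rl1, the IL-33 receptor, went from 625, 1031 and 527 to 419, 240.4 and 140.4, lower in each Th2-Th1 library, but did not pass (log2 change -1.52, limma adjusted p = 0.247). The Il1rl1 change passed with a pseudocount of 5 (adjusted p = 0.0305), by edgeR (adjusted p = 0.00594), in the 6 labelled KO libraries alone (adjusted p = 0.00468), in these with a replicate block (adjusted p = 0.000128) and in the 11 Th2 and Th2-Th1 libraries (adjusted p = 0.00106). Il2rb, an IL-2 receptor chain, rose by 0.64 (limma adjusted p = 0.02), a call lost without 4 of the 6 libraries in turn (replicates 1 and 3 of Th2, replicates 1 and 2 of Th2-Th1; 0.58 to 0.64). Without Th2 replicate 1, 1 receptor gene of the 3 passed as higher. The eotaxin receptor gene Ccr3 rose by 3.09 from 5.96, 11.2 and 2.498 normalized reads (limma adjusted p = 0.00449).

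**Figure D2:**
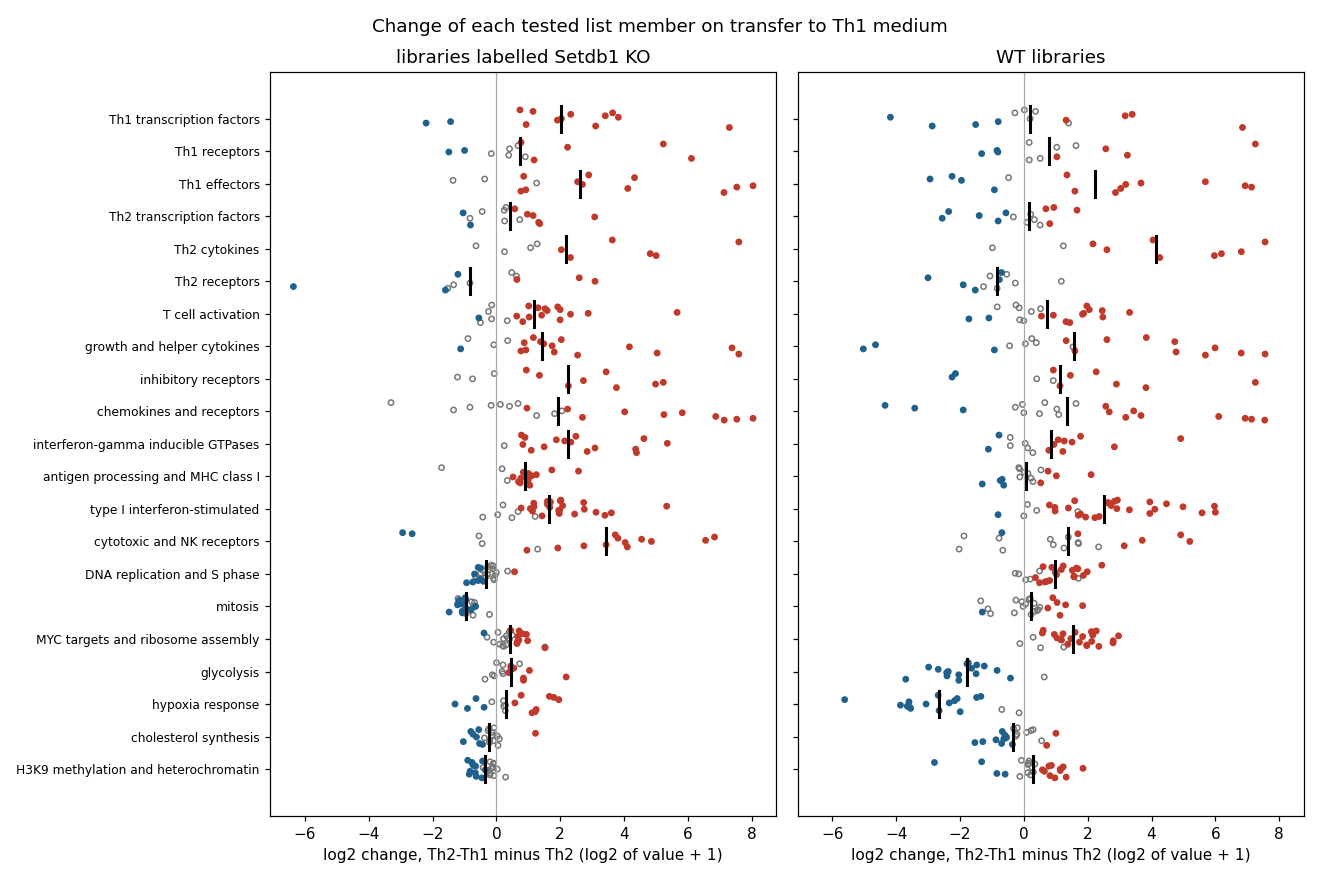
Log2 change on transfer for each tested gene of 21 lists, in labelled KO libraries (left) and WT libraries (right). Filled red points rose and filled blue points fell at a limma adjusted p under 0.05, open points did not pass, and black bars are list medians; the medians of glycolysis and hypoxia genes lie above 0 in labelled KO and below 0 in WT.

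Most interferon-induced genes rose in all 3 lists that hold them. Of 16 interferon-gamma inducible GTPases, which attack the vacuoles of intracellular microbes, 15 rose and none fell (median log2 change 2.24). Promoter sequences are printed here for genes of this response and for Il12rb2, to show where letters matching a STAT site (TTCNNNGAA) or an interferon response element (GAAANNGAA, either strand) lie next to genes that moved together. The sequences are RefSeq's for GRCm38.p6, the 200 bases before the start, 5′ to 3′ on the gene's strand, with matches in capitals. A STAT site match begins 123 bases before the start of Il12rb2 (chr6:67376189-67376388, minus strand), 90 before that of Irf1 (chr11:53769814-53770013, plus), and 171 and 153 before that of Irf8 (chr8:120736158-120736357, plus).
Il12rb2: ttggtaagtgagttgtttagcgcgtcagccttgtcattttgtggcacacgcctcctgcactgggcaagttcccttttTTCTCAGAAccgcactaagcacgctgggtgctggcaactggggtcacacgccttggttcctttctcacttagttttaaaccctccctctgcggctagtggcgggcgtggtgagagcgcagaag
Irf1: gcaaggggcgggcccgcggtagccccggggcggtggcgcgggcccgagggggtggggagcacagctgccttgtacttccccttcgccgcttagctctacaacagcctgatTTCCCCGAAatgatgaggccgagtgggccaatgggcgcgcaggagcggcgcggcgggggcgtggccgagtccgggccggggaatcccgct
Irf8: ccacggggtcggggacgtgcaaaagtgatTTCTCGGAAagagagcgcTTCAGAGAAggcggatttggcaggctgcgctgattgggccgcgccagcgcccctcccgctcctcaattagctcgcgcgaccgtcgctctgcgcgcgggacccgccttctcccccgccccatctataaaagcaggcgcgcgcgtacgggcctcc
Gbp2 (chr3:142620463-142620662, plus) holds an interferon response element match 58 bases before its start, and Gbp5 (chr3:142496734-142496933, plus) holds one at 164, a STAT site match at 52 and a GATA match (AGATAA) at 35. Igtp (chr11:58199356-58199555, plus) holds a STAT site match at 45 beside an interferon response element match at 34, and Irgm1 (chr11:48871421-48871620, minus) holds 2 overlapping interferon response element matches at 30 and 24.
Gbp2: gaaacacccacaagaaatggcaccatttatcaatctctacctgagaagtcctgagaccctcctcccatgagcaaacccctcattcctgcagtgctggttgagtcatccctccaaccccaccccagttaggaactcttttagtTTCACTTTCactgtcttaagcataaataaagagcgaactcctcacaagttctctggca
Gbp5: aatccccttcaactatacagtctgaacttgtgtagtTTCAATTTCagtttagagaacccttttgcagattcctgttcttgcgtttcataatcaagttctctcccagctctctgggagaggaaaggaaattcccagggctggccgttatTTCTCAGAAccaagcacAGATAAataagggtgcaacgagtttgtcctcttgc
Igtp: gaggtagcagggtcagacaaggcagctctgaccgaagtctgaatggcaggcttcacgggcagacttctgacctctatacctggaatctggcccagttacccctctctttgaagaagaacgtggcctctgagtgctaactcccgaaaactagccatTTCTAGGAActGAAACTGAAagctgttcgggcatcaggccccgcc
Irgm1: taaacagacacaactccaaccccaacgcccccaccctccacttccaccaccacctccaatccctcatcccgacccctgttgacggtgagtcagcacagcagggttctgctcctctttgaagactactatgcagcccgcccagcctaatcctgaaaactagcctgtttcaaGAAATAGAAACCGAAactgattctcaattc
Within 250 bases before the start, 8.18% of 27025 genes with a RefSeq promoter held GAAANNGAA and 8.13% held TTCNNNGAA on either strand. The T-box site GGTGTGA was in 3.84% and AGATAA in 11.4%. Only 10 of the 16 GTPases and 67.1% of all tested genes had a promoter sequence, so a share over the list is void, and a match is a description of letters only. The 10 were Gbp2, Gbp3, Gbp5, Gbp7, Igtp, Irgm1, Irgm2, Tgtp1, Tgtp2 and Ifi47, and Ifi47 was the 1 of them without a GAAANNGAA match. Gbp2, Gbp3, Irgm1 and Ifi47 were without a TTCNNNGAA match. Each printed promoter holds a match to some site, so the printed set shows no share either.

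The GTPase genes with printed promoters moved as follows. Gbp2 went from 434, 535 and 687 to 12751, 9912 and 11651 normalized reads, and Gbp5 from 166, 178 and 182 to 3625, 3492 and 3769. All 6 Th2-Th1 values were far above the Th2 values, with log2 changes of 4.39 (SE 0.24) and 4.36 (SE 0.15; limma adjusted p = 7.98e-11 and 1.85e-13). Igtp went from 1772, 2050.2 and 1996 to 11208, 8407 and 9861 (log2 change 2.33) and Irgm1 from 1492, 1888 and 2039 to 8846, 7435 and 7479 (log2 change 2.14, limma adjusted p = 5.39e-08 and 2.03e-08). The other large rises were those of Gbp10 (5.36), Iigp1 (4.62), Gbp6 (3.09) and Gbp3 (2.84, limma adjusted p = 2.84e-08, 2.22e-06, 1.09e-07 and 9.53e-09). Gbp8 read 884, 739.7 and 932 in Th2 and 1214, 847 and 991 in Th2-Th1, with overlapping groups (limma adjusted p = 0.323). The Gbp and Tgtp genes have close copies, and their separate values are uncertain for that reason.

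**Figure D3:**
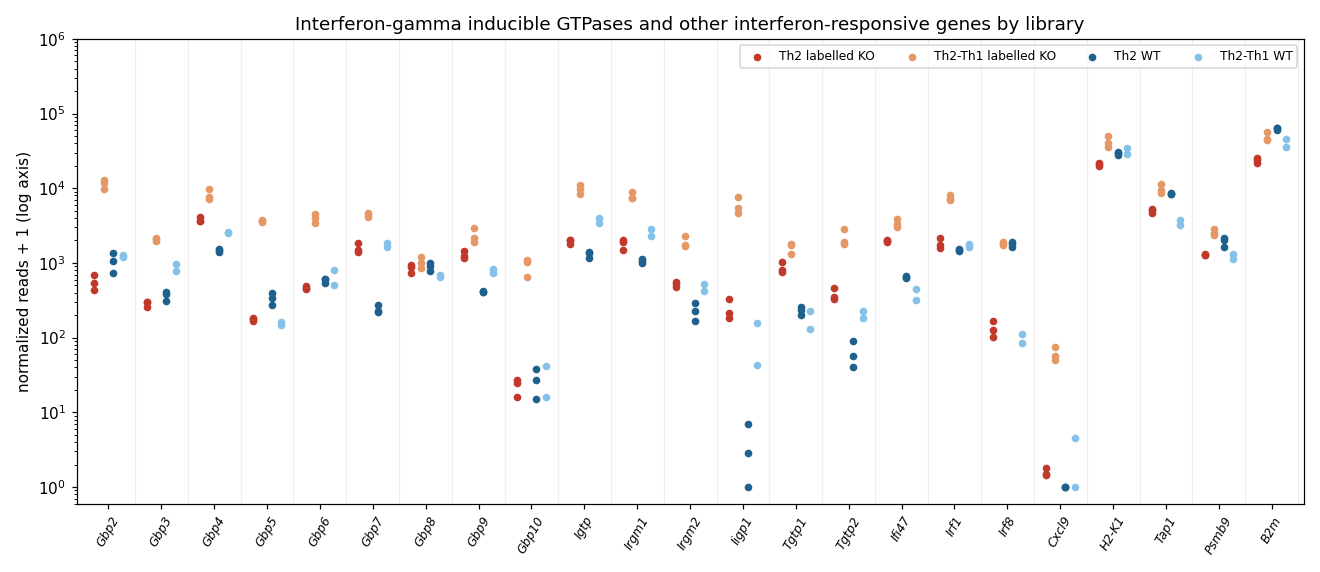
Normalized reads plus 1 on a log axis for the 16 GTPase genes and 7 other interferon-responsive genes, 1 point per library in 4 groups. The Th2-Th1 libraries labelled KO are the highest of the 4 groups for Gbp2, Gbp5, Gbp10, Iigp1 and Irf1, and for B2m they lie above Th2 labelled KO and in the range of the WT libraries.

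Most antigen processing and MHC class I genes rose, with smaller sizes. Of 16 listed, 13 rose and none fell (median log2 change 0.907). H2-K1, a class I heavy chain, went from 19886, 20971 and 21721 to 49756, 40752 and 36203 normalized reads, and the light chain gene B2m from 22049.5, 23745 and 25297 to 57113, 45706 and 44748 (log2 changes 1.01 and 1.05, limma adjusted p = 2.2e-06 and 0.000104). H2-T23 rose by 2.57 (limma adjusted p = 1.3e-07), with Th2-Th1 replicate 1 the highest at 13522. Tap1, the peptide transporter, rose by 0.97, the immunoproteasome subunit Psmb9 by 1.004 and the class I transactivator Nlrc5 by 1.25 (limma adjusted p = 1.25e-06, 2.4e-05 and 4.35e-07). H2 genes share sequence, and their separate values are uncertain. Ciita, the transactivator of MHC class II, was low at 25.03, 17.5 and 13.99 and 5.38, 7.01 and 2.96 and did not pass (limma adjusted p = 0.283), but its log2 change of -1.72 passed in the 6 labelled KO libraries alone (adjusted p = 0.00771) and with a replicate block there (adjusted p = 0.00677).

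Of 30 type I interferon-stimulated genes, many of which IFN-gamma also induces, 24 rose and none fell (median log2 change 1.66). Ifi44 went from 7.15, 10.7 and 21.98 to 515, 433 and 646 normalized reads (log2 change 5.33, limma adjusted p = 2.03e-07). The ubiquitin-like modifier Isg15 went from 65.6, 96.7 and 88.9 to 1178, 806 and 721 (log2 change 3.400, limma adjusted p = 4.11e-07). Mx2 and Oas1a, antiviral effectors, rose by 3.602 and 3.12 (limma adjusted p = 0.000461 and 0.000358). Ifit2 read 807, 927 and 1281 in Th2 and 799, 668 and 737 in Th2-Th1, and Ifit1 554, 790.3 and 812 and 1522, 902 and 713, and neither passed (limma adjusted p = 0.104 and 0.47). All Ifit2 values were lower in Th2-Th1, and Ifit2 passed as lower by edgeR (-0.49, adjusted p = 0.0413) and in the 6 labelled KO libraries alone, without and with a replicate block (-0.43, adjusted p = 0.0476 and 0.0236).

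Many chemokine, helper cytokine and inhibitory receptor genes rose as well. Among 23 chemokines and receptors, 20 were tested, 10 rose and none fell (median log2 change 1.94). The CXCR3 ligand Cxcl9 went from 0.795, 0.448 and 0.4996 to 49.9, 55.6 and 73.4 normalized reads (log2 change 5.25, limma adjusted p = 0.000109). Its relative Cxcl11 was at 0 in all 3 Th2 libraries and at 49.4, 57.1 and 61.1 in Th2-Th1, and it was also at 0 in all 5 WT libraries. Cxcl9 and Cxcl11 were below the filter's 10 in Th2, passed with their Th2-Th1 values and could only be called higher. The chemokine count and median are thus a description only. Ccl1, a CCR8 ligand, rose by 7.14 (limma adjusted p = 5.38e-06) and Ccl9 by 6.87 (limma adjusted p = 8.24e-07). Of 18 growth and helper cytokines, 14 rose and 1 fell, with a median log2 change of 1.43. Il21, a cytokine that helps B cells and cytotoxic cells, went from 24.2, 24.2 and 19.5 to 3231, 3415 and 5464 (log2 change 7.38, limma adjusted p = 1.03e-08). Csf2, which encodes GM-CSF, went from 50.5, 49.3 and 40.5 to 1019.9, 1779 and 2081 (log2 change 5.04, limma adjusted p = 6.17e-06), and the member that fell was Ltb (log2 change -1.12, limma adjusted p = 9.26e-05).

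Of 11 inhibitory receptors, 8 rose and none fell (median log2 change 2.26). Lag3 went from 41.7, 32.2 and 27.98 to 1523, 1161 and 739 normalized reads, Pdcd1, which encodes PD-1, from 173, 154 and 113 to 2142, 2084 and 1707, and Ctla4 from 3634, 4306 and 3611 to 20294, 20582 and 14729. The groups were apart for all 3 genes, with log2 changes of 4.99, 3.76 and 2.26 (limma adjusted p = 4.21e-05, 2.56e-08 and 7.43e-08). Cd200 rose by 3.44 (SE 0.14, limma adjusted p = 1.14e-12). Among 20 T cell activation genes, 14 rose and 1 fell, with a median log2 change of 1.17. Nr4a3, an early response gene of the T cell receptor, went from 20.3, 28.7 and 32.97 to 1392, 1373 and 1448 (log2 change 5.66, limma adjusted p = 3.58e-11), and its relatives Nr4a2 and Nr4a1 rose by 2.88 and 2.32 (limma adjusted p = 0.000156 and 2.91e-05). Icos fell by 0.55 (limma adjusted p = 0.00669), a call lost without Th2-Th1 replicate 2 (-0.42). Whether the receptor was stimulated again is not stated in the labels.

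Most of the tested cytotoxic and NK receptor genes rose. Of 22 listed, 17 were tested, 12 rose, 2 fell and 3 did not pass, with a median log2 change of 3.44. Klrk1, which encodes the activating receptor NKG2D, went from 1.59, 1.34 and 1.998 to 373, 340.1 and 211 normalized reads (log2 change 6.83, SE 1.13, limma adjusted p = 0.000117). Klrc1, which encodes the inhibitory receptor NKG2A, went from 1.99, 1.34 and 0.999 to 252, 330.1 and 137 (log2 change 6.55, limma adjusted p = 5.54e-06). Prf1, the gene of perforin, went from 68.3, 50.6 and 4.996 to 385, 869 and 281, and Nkg7, a cytotoxic granule gene, from 49.7, 53.7 and 14.99 to 871, 1532 and 806. Replicate 2 was the highest Th2-Th1 library for both and Th2 replicate 3 the lowest of all 6, with log2 changes of 4.04 and 4.86 (limma adjusted p = 6.06e-05 and 0.000285). Gzmd, a granzyme, went from 28.2, 18.8 and 1.499 to 229, 447 and 69.96 (log2 change 4.102, limma adjusted p = 0.00213). The granzyme Gzmf went from 3.18, 0.895 and 0 to 12.7, 56.1 and 11.8, and its call was lost without Th2-Th1 replicate 2 (2.73). Gzmd and Gzmf were among the 5 most variable named or listed genes in Th2-Th1, and they have close copies that may share reads. Cd226, an activating receptor, fell by 2.94 on the log2 scale (limma adjusted p = 6.88e-09).

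Markers of other cells were read beside these results. The NK cell markers Ncr1, Klra8, Klra4 and Klra7 were at most 2.96 normalized reads in every labelled KO library, and Klrb1c was at 15.5, 5.82 and 3.497 in Th2 and 1.47, 0.501 and 0 in Th2-Th1. Of the 4 NK markers tested, 1 rose (Gzma) and 1 fell (Eomes), and the sum of the list, which Gzma dominates, was 5511 to 5610 in Th2 and 8949 to 12947 in Th2-Th1. Gzma lost its call without Th2-Th1 replicate 2 (0.81). Cd8a, which defines CD8 T cells, was at 41.3, 21.5 and 12.5 in Th2 and 0, 2.004 and 0 in Th2-Th1, and of 4 CD8 T cell markers tested 1 rose and 3 fell. The list of CD8 T cell markers summed to 559 to 602 in Th2 and 679 to 811 in Th2-Th1. The member that rose was Runx3 (0.93), named above among the Th1 factors, while Cd8a, Cd8b1 and Eomes fell. Of 11 T cell markers, 9 rose and none fell, and their sum went from 59442 to 66228 in Th2 up to 84476 to 99776 in Th2-Th1. Cd4 went from 5793, 5853 and 6132 to 9537, 9173 and 6976, and Cd3e from 1032, 1072 and 1139 to 812, 942 and 925, the latter without passing (limma adjusted p = 0.399). Cd3e passed as lower in the 6 labelled KO libraries alone, without and with a replicate block (-0.28, adjusted p = 0.0428 and 0.0461). The part of these markers in the results was not tested.

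The largest falls included genes of other lineages. Cpa3, a mast cell protease, went from 385, 289.7 and 405 to 0.489, 1.002 and 1.97 normalized reads (log2 change -7.43, limma adjusted p = 9.88e-07), while the mast cell and basophil markers Fcer1a, Ms4a2, Mcpt4 and Prss34 were at 0 in all 6 libraries. Kit, another mast cell marker, rose from 1.19, 0.448 and 0.4996 to 53.8, 46.6 and 62.6 (limma adjusted p = 0.000325). The list summed to 294 to 406 in Th2, where Cpa3 dominated it, and to 54.6 to 65.0 in Th2-Th1, where Kit did. Emr1, the older symbol of the macrophage marker Adgre1, went from 4659, 5334 and 5438 to 64.1, 44.1 and 51.2 (log2 change -6.58, limma adjusted p = 2.15e-07). The myeloid markers Elane, S100a8 and S100a9 were at 0 in all 6 libraries, and 2 of 8 tested myeloid markers fell and none rose. The sum, which Emr1 dominated in Th2, went from 5100 to 5860 down to 186 to 251. Ighm, the immunoglobulin mu heavy chain, went from 706, 702 and 1266 to 25.4, 42.1 and 33.5 (limma adjusted p = 5.96e-12), while Ms4a1, the CD20 gene, was at most 0.501 in every labelled KO library. In all, 3 of 9 B cell markers fell and none rose, and their sum, which Ighm dominated, went from 756 to 1318 down to 31.3 to 49.1. Gata1, an erythroid factor, went from 286, 321 and 389.7 to 13.2, 29.6 and 31.5 (limma adjusted p = 2.65e-08), and 2 of 6 tested erythroid and platelet markers fell and none rose, with sums of 713 to 797 and 69.0 to 77.8. The part of such cells in the results was not tested.

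Other large falls were those of Sult5a1, a sulfotransferase family member, from 565, 514 and 690.4 to 3.91, 2.505 and 3.45 normalized reads, and of Slamf6, a receptor of the SLAM family, from 909, 741 and 852 to 21.5, 7.01 and 17.2. No Th2-Th1 library came near a Th2 library, and the log2 changes were -7.11 and -5.81 (limma adjusted p = 2.18e-06 and 3.11e-12). Trat1, an adaptor of the T cell receptor, fell by 5.61 (SE 0.15, limma adjusted p = 3.4e-15), and Myo6, an unconventional myosin, fell by 5.86 (SE 0.24, limma adjusted p = 1.28e-12). The 12 largest falls also held Krt80, Fam115e, Morc1, Fam229b and Drc1, with log2 changes from -5.72 to -6.53. The 12 largest rises held, beside genes already named, Pdpn (7.55), a membrane mucin, Serpinb9b (7.52), Crabp2 (7.49), which binds retinoic acid, Tpbg (7.13) and Rgs16 (6.88), a brake on G protein signals.

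Some proliferation genes fell on transfer. Of 23 mitosis genes, none rose and 12 fell, and 11 did not pass, with a median log2 change of -0.958. Top2a, the topoisomerase of dividing cells, went from 58427, 54217 and 66609 to 23455, 28697 and 33357 normalized reads, and the kinesin Kif11 from 14324, 13551 and 15209.6 to 5334, 6376 and 7153. For both genes the highest Th2-Th1 library was below the lowest Th2 library, with log2 changes of -1.08 and -1.200 (limma adjusted p = 0.001 and 9.39e-05). The count of 12 rested on all libraries: it was 7 without Th2 replicate 1 or 2, and 6 without Th2 replicate 3 or Th2-Th1 replicate 1 or 2. Mki67, the Ki-67 gene, went from 43282, 39676 and 47992 to 19739, 28203 and 32318 and did not pass (limma adjusted p = 0.0642), though its log2 change of -0.73 passed with a pseudocount of 5, by edgeR and in the 6 labelled KO libraries alone (adjusted p = 0.0467, 0.0266 and 0.00496), with TMM scaling and with the 11 libraries alone (adjusted p = 0.0461 and 0.00189), and with a replicate block (adjusted p = 0.000703). Of 25 replication and S phase genes, 1 rose, 8 fell and 16 did not pass, with a median log2 change of -0.332, led by the helicase subunits Mcm2 (-0.93) and Mcm3 (-0.74; limma adjusted p = 5.49e-06 and 0.00153). The member that rose was the cyclin gene Ccne1 (0.57, limma adjusted p = 0.0178), a call lost when replicate 2 or 3 of either medium was left out (0.46 to 0.55).

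Growth and metabolism lists moved by less. Of 26 MYC targets and ribosome assembly genes, 11 rose and 1 fell (median log2 change 0.428), and Myc itself went from 248, 478 and 354 to 738, 1138 and 1189.9 normalized reads (log2 change 1.52, limma adjusted p = 0.000194). Of 17 glycolysis genes, 9 rose and none fell (median 0.451), with the hexokinase genes Hk2 and Hk1 at 2.19 and 0.85 (limma adjusted p = 0.00338 and 1.16e-05). Of 17 hypoxia response genes, 8 rose and 4 fell (median 0.288): Ndrg1 rose by 1.802, and Pdk1, the kinase that closes the entry to the citric acid cycle, fell by 1.297 (limma adjusted p = 6.54e-07 and 1.7e-07). Of 20 cholesterol synthesis genes, 1 rose and 7 fell (median -0.223), and of 20 amino acid and ATF4 response genes 6 rose and none fell (median 0.391). The 7 cholesterol genes became 4 without Th2 replicate 2, Th2 replicate 3 or Th2-Th1 replicate 2. Of 17 unfolded protein response genes, 3 rose and 2 fell (median 0.143), and without Th2-Th1 replicate 2 it was 1 each way, while without Th2 replicate 1 it was 1 that fell. The 18 p53 targets and apoptosis genes held 2 that rose and 3 that fell, of which 1 passed as lower without Th2 replicate 1.

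Lists of other T cell states were mixed. Of 19 naive and quiescent genes, 6 rose and 7 fell. Tcf7, which encodes TCF-1, went from 487, 667 and 934 to 45.00, 35.6 and 45.8 normalized reads, and Id3 from 452, 409 and 435 to 21.03, 16.03 and 16.3 (log2 changes -3.97 and -4.54, limma adjusted p = 5.3e-11 and 4.5e-09). Of 13 Treg genes, 6 rose and 3 fell, but with any 1 library left out at most 1 was called lower, and the defining factor Foxp3 was at most 4.93 in every labelled KO library. Of 8 Th17 genes tested, 4 rose and 1 fell. The call of Il17a, among those that rose, was lost with no filter and with TMM scaling. It was also lost with any 1 library left out except Th2-Th1 replicate 3. Of 11 Tfh genes, 3 rose and 3 fell, and Bcl6, their defining factor, read 13.5, 21.9 and 16.99 and 47.4, 30.6 and 20.2 and did not pass (limma adjusted p = 0.118), though it did without Th2-Th1 replicate 3 (1.11). The 14 SOCS and STAT5 targets held 4 that rose (2 without Th2-Th1 replicate 1) and 3 that fell, with the survival genes Bcl2l1 at 1.08 and Bcl2 at -1.23 (limma adjusted p = 2.75e-05 and 5.2e-06). Of 20 immediate early and heat shock genes, 7 rose and 3 fell, with Fos at -3.14 (limma adjusted p = 1.96e-06).

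Genes of the H3K9 methylation and heterochromatin list were lower after transfer or did not pass. Of 26 listed, 25 were tested, none rose and 12 fell, with a median log2 change of -0.351. Ehmt2, which encodes the methyltransferase G9a, went from 4721, 4404 and 4703 to 2921, 2269 and 2518 normalized reads, and Cbx5, which encodes the heterochromatin protein HP1-alpha, from 9914, 9206 and 9402 to 4630.4, 5457 and 6103. The groups were apart for both genes, with log2 changes of -0.85 and -0.83 (limma adjusted p = 2.04e-06 and 9.78e-06). The demethylase gene Kdm4b fell by 0.76 (limma adjusted p = 0.000328) and the nuclear lamin gene Lmnb1 fell by 0.898 (limma adjusted p = 2.78e-06).

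Whether the switch differed between genotypes was tested as the labelled KO change minus the WT change in the same fit. In WT, 8584 genes passed (49.8%), 4444 higher (25.8%) and 4140 lower (24.0%), and the difference between genotypes passed for 6126 (35.5%), 2979 with a higher change in labelled KO (17.3%) and 3147 with a lower one (18.2%). Of the 4604 genes called in labelled KO, 2387 were called in WT in the same direction, 646 in the opposite direction and 1571 did not pass in WT. The median size of the log2 change was 0.411 in labelled KO and 0.831 in WT. Across the 17254 genes, the 2 changes correlated with r = 0.385 and rho = 0.305, as a description, since genes are not independent replicates and the libraries differ in depth and in ribosomal protein share. The WT comparison had 2 Th2-Th1 libraries.

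The Th1 axis differed for some of its members. Ifng stood at 4.03, 7.42 and 9.98 in WT Th2 and at 43.7 and 70.9 in WT Th2-Th1, so the highest WT library was below the lowest labelled KO Th2-Th1 library and near the labelled KO Th2 libraries. Its change was larger in labelled KO by 4.26 (SE 1.03, limma adjusted p = 0.00301). Il12rb2 stood at 341, 249 and 404 in WT Th2 and 415 and 518 in WT Th2-Th1, above the labelled KO libraries before the switch and below them after it (difference 5.600, SE 0.64, limma adjusted p = 1.51e-06). Tbx21 rose in WT from 2.02, 0 and 0 to 138 and 199 (log2 change 6.85, limma adjusted p = 9.73e-07), and the labelled KO libraries ended higher. Its difference of changes was 0.45 (SE 1.10, limma adjusted p = 0.809). The sign turned under other settings: it was -0.44 by edgeR and -0.47 by DESeq2 on recovered reads and -0.08 without WT Th2 replicate 1, while with a pseudocount of 5 it passed at 1.99. Because the WT Th2 libraries were at or near 0 for Tbx21, no order of the changes can be read from it.

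Irf8 and Hlx moved in opposite directions. Irf8 fell in WT from 1901, 1638 and 1784 to 83.9 and 112 normalized reads (log2 change -4.18) and rose in labelled KO, a difference of 8.001 (SE 0.35, limma adjusted p = 9.15e-12). Hlx fell in WT from 151, 159.6 and 215 to 21.3 and 24.4, a difference of 5.98 (limma adjusted p = 5.43e-05). Before the switch both genes were lower in labelled KO than in WT. Bhlhe40 stood at 7849, 7322 and 9542 and 6999.6 and 6486 in WT, a difference of 3.92 (limma adjusted p = 0.000194). Il12rb1 had a difference of 1.01 (limma adjusted p = 0.0252), which was lost without labelled KO Th2 replicate 3 (0.94), labelled KO Th2-Th1 replicate 1 (0.86), either WT Th2-Th1 library (1.06 and 0.96), and with no filter (adjusted p = 0.0517). Il18rap rose in WT and had a difference of -2.86 (limma adjusted p = 0.000138). The Stat4 difference of -0.63 (limma adjusted p = 0.02) was lost without labelled KO Th2 replicate 3 (-0.57) and without WT Th2-Th1 replicate 1 (-0.32). The Eomes difference of -3.602 (limma adjusted p = 0.00812) was lost without WT Th2-Th1 replicate 1 (-3.07).

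Il4, Il5, Il13 and Gata3 ended lower in labelled KO than in WT. Before the switch Il4, Il5 and Il13 were already lower, with Th2 means of 617, 843 and 882 in labelled KO and 1957, 2491 and 2560 in WT. The Th2 means of Gata3 were 2240 and 2169. Il4 went from 2176, 1759 and 1936 in WT Th2 to 38062 and 36607 in WT Th2-Th1, so every WT Th2-Th1 library was above every labelled KO library. Its rise was smaller in labelled KO, with a difference of -1.94 (SE 0.40, limma adjusted p = 0.000875). Il5 reached 148123 and 164125 and Il13 168498 and 204615 in WT, with differences of -0.96 and -1.37 that did not pass (limma adjusted p = 0.351 and 0.0645). The Il13 difference passed with a pseudocount of 5 (-1.38, adjusted p = 0.0214), by edgeR (-1.55, adjusted p = 0.0119), in the 11 Th2 and Th2-Th1 libraries alone (-1.37, adjusted p = 0.0399) and without labelled KO Th2 replicate 3 (-1.92, adjusted p = 0.0032). Gata3 stood at 2199.8, 2004 and 2303 and 3266 and 2908 in WT, and its difference was -1.32 (SE 0.30, limma adjusted p = 0.00206). Il9 rose in WT from 2.02, 0 and 4.99 to 207 and 418, a difference of -6.56 (limma adjusted p = 0.00216). Of the 10 Th2 cytokines, 8 rose in WT with a median log2 change of 4.15, and the difference was past the threshold for 2, both lower in labelled KO.

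**Figure D4:**
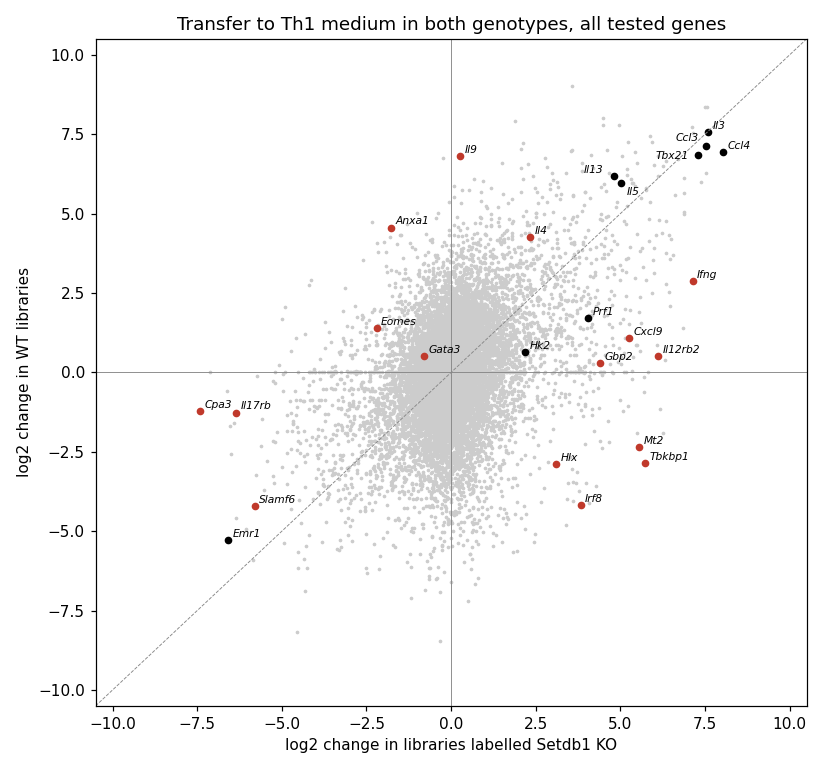
Log2 change on transfer in labelled KO (horizontal) against WT (vertical) for all 17254 genes, with the diagonal dashed and 25 genes named. Red points had a difference between genotypes at a limma adjusted p under 0.05 and black points did not; Irf8, Hlx, Mt2 and Tbkbp1 rose in labelled KO and fell in WT.

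Interferon-induced lists split by kind. Of the 16 GTPases, 9 rose and 2 fell in WT (median log2 change 0.861), and the difference passed for 12, 11 of them higher in labelled KO. Gbp5 fell in WT from 274, 343 and 399 to 162 and 148 normalized reads, a difference of 5.47 (SE 0.22, limma adjusted p = 5.02e-12). Gbp2 stood at 740.0, 1048 and 1357 and 1274 and 1200.1 in WT, a difference of 4.11 (limma adjusted p = 6.93e-08). Irf1 had a difference of 1.84 (limma adjusted p = 7.65e-08). Of the MHC class I genes, 4 rose and 4 fell in WT (median 0.0706), with 10 higher and 1 lower in the difference. Of the type I interferon-stimulated genes, 25 rose and 1 fell in WT (median 2.5), with 3 higher and 12 lower in the difference. Xaf1 and Rtp4 were among those with a smaller rise in labelled KO (-2.81 and -3.81, limma adjusted p = 0.000162 and 3.45e-05).

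Metabolic and cycle lists also differed. Of 17 glycolysis genes, none rose and 16 fell in WT (median log2 change -1.78), and of 17 hypoxia response genes none rose and 15 fell (median -2.65). The difference was higher in labelled KO for 16 and 17 of these genes and lower for none. Slc2a1, the glucose transporter GLUT1, went from a mean of 10531 in WT Th2 to 2562 in WT Th2-Th1, against 2219.8 and 3979 in labelled KO (difference 2.89, limma adjusted p = 1.03e-08). Of 25 S phase genes, 19 rose and none fell in WT (median 0.988), and the difference was lower in labelled KO for 19. Of 23 mitosis genes, 6 rose and 1 fell in WT (median 0.227), and the difference was lower for 10. MYC targets and ribosome assembly genes rose for 22 of 26 in WT (median 1.54), with 18 lower and 1 higher in the difference. The ribosomal protein share given above moved in WT between the same groups.

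The largest differences were in other genes. Tbkbp1, which binds the kinase TBK1, went from 18.3, 4.03 and 7.99 to 554, 468 and 486 normalized reads in labelled KO and from 72.6, 59.4 and 49.9 to 9.45 and 5.81 in WT (difference 8.57, limma adjusted p = 3.12e-05). Mt2, a metallothionein, went from 86.6, 158 and 93.4 to 4055, 5069 and 6624 in labelled KO and from 2841, 3308 and 3428 to 683 and 563 in WT (difference 7.91, limma adjusted p = 1.58e-09). The genotypes were thus apart before the switch in the reverse order. Anxa1, an anti-inflammatory annexin, went from 2166, 2010.3 and 1669.6 to 720.0, 604 and 413 in labelled KO and from 58.5, 42.7 and 59.9 to 1227 and 1326 in WT (difference -6.34, limma adjusted p = 2.77e-06). The fall of Anxa1 within labelled KO lost its call without Th2 replicate 1 (-1.70) and without Th2-Th1 replicate 3 (-1.55).

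Chromatin before the switch was read from the authors' peak lists of Th2 cells, which are pooled per group and hold no replicates. A gene was counted as having a peak when one lay within 1 kb of its start or, for the 4578 of 16148 genes with no strand, within 1 kb of the whole gene. An ATAC peak, a mark of open chromatin, was present in the labelled KO list for 74.7% of 1103 genes that rose at least 2-fold, 82.2% of 974 that fell, and 74.4% of 11641 that did not pass, against 78.2% of all 16148. H3K27ac, a mark of active promoters and enhancers, was present for 61.4%, 73.3% and 68.4% of the same genes and for 72.4% of all. These orders depended in part on the windows over whole genes. With the 11570 genes that have a start and strand alone, an alternative chosen after seeing the data, the ATAC shares were 74.6% of 818 genes that rose, 82.0% of 737 that fell, 82.1% of 8089 that did not pass and 84.3% of all. The H3K27ac shares were then 60.8%, 73.3%, 74.4% and 77.3%. In that setting genes that fell were thus no longer above all genes for either mark and were close to those that did not pass. Genes that rose had the lowest share for both. The share of all also covers genes called with less than a 2-fold change, which are in none of these groups. The median level in labelled KO Th2 was 52.3 normalized reads for those that rose, 319.6 for those that fell and 145 for those that did not pass, so the gene groups also differed in level, whose part in the shares was not tested. H3K9me3 peaks of the WT list were at 5.98% of genes that rose, 9.34% of those that fell and 4.29% of those that did not pass (95% Wilson intervals 4.73% to 7.54%, 7.67% to 11.3% and 3.93% to 4.67%). With a start and strand alone they were at 1.47%, 1.76% and 1.12% (12 of 818, 13 of 737 and 91 of 8089 genes, intervals 0.841% to 2.55%, 1.03% to 2.99% and 0.917% to 1.38%), so most of the first shares came from windows over whole genes and the intervals overlapped. In the labelled KO list, which held 1708 peaks against 12233 in WT, the shares were 0.635%, 0.616% and 0.661% over all windows and 0.244%, 0.271% and 0.383% with a start alone. Lists of unequal length cannot be compared between genotypes.

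At single genes, Il4, Il5 and Il13 held ATAC, H3K27ac and H3K4me1 peaks in the Th2 lists of both genotypes, and so did Il12rb2 and Irf8. Ifng held no peak of any mark within 1 kb of its start in either genotype. Tbx21 held H3K4me1, a mark of enhancers, in both and an ATAC peak in the WT list only, which is the longer of the 2. Of the 12 genes with the largest rise, 10 had a window, and 3 held an ATAC peak and 2 an H3K27ac peak in the labelled KO list. Of the 12 with the largest fall, 9 had a window, and 5 held an ATAC peak and 6 an H3K27ac peak. Over all genes with a start, the labelled KO shares were 84.3% and 77.3%. None of these 19 genes held an H3K9me3 peak in either list. Only 1.09% of all genes with a start held one in the WT list and 0.311% in the labelled KO list, so this absence is a description only. Of the 10 GTPases with a promoter sequence, 9 held an ATAC peak and 10 an H3K27ac peak in labelled KO Th2 cells, beside the 84.3% and 77.3% of all genes with a start, so the counts are a description only.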

How the data were processed

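RNA was sequenced from spleen CD4+ T cells, and chromatin immunoprecipitation and ATAC peaks of Th2 cells were used beside it. Per the submitters' processing notes, cutadapt 1.3, TopHat2 2.0.5, BWA 0.7.10, MACS2 2.1.0, DESeq and the mm10 genome were used; the annotation and strand setting of the counting were not found in these sources. The deposited RNA signal values are the reads in each gene, scaled by a library's size factor, and whole reads within 0.01 reads were recovered for 100% of values above 0. The table held 39179 genes in 2 identical copies, of which the first was analysed. Peak lists came from the authors as 1 list per group, and their deposited score values served as an alternative filter only.

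limma 3.58.1 (R 4.3.3, trend) was fitted to log2 of the value plus 1 for all 18 libraries, with 1 coefficient per group, over the 17254 genes at 10 or more in 2 or more libraries, as in the comparison's rule, and p was adjusted by Benjamini-Hochberg over all genes. edgeR 4.0.16 on the recovered reads called 5098 genes in the labelled KO switch, and DESeq2 1.42.0 was a second alternative. The scripts were tested on simulated data. Genes named were 20 always, the 12 largest rises and falls without overlap and with a mean of 50 or more, the 8 largest differences each way, up to 4 members of each of 37 lists and the 5 most variable genes; other list members, such as Irf1, were named after their values were seen, and some genes that the rule takes in are not reported here. Members and lists were chosen with earlier results of these data known. Of 592 list entries, 587 matched 1 gene. Gene positions and promoters are RefSeq's for GRCm38.p6, matched by symbol or synonym. Intervals are 95% Wilson intervals and cover counting error only. Alternatives covered the pseudocount, the filter, the scaling, the test, single libraries, the libraries in the fit, a block for the replicate number, and the window and score of peaks. Python 3.11.15, pandas 2.3.3, scipy 1.17.1 and matplotlib 3.10.9 were used.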

Additional observations from a re-analysis of the deposited data

Results flagged for a closer look

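The change on transfer differed between labelled KO and WT cells for a set of genes, many of which the report already gives with the same values. Their difference was tested in the fit across all genes (limma, adjusted p under 0.05). Each value below is the labelled KO log2 change minus the WT log2 change.

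Among genes of the Th1 and Th2 fates, the difference was 4.26 for Ifng, 5.60 for Il12rb2, 1.01 for Il12rb1, 5.98 for Hlx and 8.001 for Irf8, each higher in labelled KO. It was -2.86 for Il18rap, -0.63 for Stat4, -3.60 for Eomes, -1.32 for Gata3, -1.94 for Il4 and -6.56 for Il9, each lower in labelled KO. Setdb1 had a difference of -1.43. The calls of Il12rb1, Stat4 and Eomes rested on single libraries, as given in the report.

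Other genes with a higher change in labelled KO were Tbkbp1 at 8.57, Smtnl2 at 8.13, Mt2 at 7.91, Rab34 at 7.86, Guca1a at 7.76, Tgfb3 at 7.71 and Mpzl2 at 7.63. All 7 fell in WT. Smtnl2 read 5.17, 9.402 and 9.49 in Th2 and 3.42, 5.01 and 11.8 in Th2-Th1 of labelled KO, against 778, 829 and 916 and 4.72 and 0 in WT, so its difference came from WT. Tgfb3, a TGF-beta ligand gene, read 5.96, 19.7 and 19.98 and 26.4, 16.5 and 16.8 in labelled KO and 1161, 956 and 1305 and 16.5 and 2.32 in WT.

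Genes with a lower change in labelled KO were Sult5a1 at -7.11, Cacna2d1 at -7.04, Anxa1 at -6.34, Cpa3 at -6.23, Ifi203 at -6.10, Map2 at -6.08 and Drc1 at -5.61. Sult5a1 was at 0 in all 5 WT libraries, and the differences of Sult5a1 and Cpa3 did not pass by edgeR (-7.47 and -5.58). Ifi203 read 578, 570.0 and 900.3 and 172, 142 and 190.2 in labelled KO and 2.02, 0 and 2.49 and 34.3 and 39.5 in WT, and it has close copies that may share reads. For genes at or near 0 in a group, the size of the difference depends on the value added before the logarithm.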

How the results depend on the processing

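The count of genes changed in labelled KO, 4604, was 4984 with a pseudocount of 5, 4093 with no filter, 4194 with a mean of at least 50, 4597 with TMM scaling (2100 higher, 2497 lower), 5098 by edgeR, 5502 by DESeq2, 5741 with the 11 libraries alone, 6581 with the 6 alone, and 3517 to 4158 with 1 library left out. Requiring a 2-fold change gave 2140 (1132 higher, 1008 lower), 5363 in WT (2675 and 2688) and 2048 genes with a lower change in labelled KO. With 1 library left out, the WT count was 6938 to 8133 and the difference 4970 to 5906. Whether replicate numbers pair the libraries was not settled. Over 11117 genes, deviations of same-numbered libraries correlated at 0.114, 0.0906 and 0.284. Th2 replicate 2 correlated best with Th2-Th1 replicate 1 (0.228), and the remaining pairs of unlike number were negative (-0.301 to -0.0327). A fit of the 6 libraries with a replicate block called 6754 of 14253 genes tested, among them Il1rl1, Mki67, Il18r1, Il18rap, Ifit2, Stat6, Ciita and Cd3e, which the fit of all libraries did not call. For peaks of labelled KO, keeping scores at or above the median gave ATAC at 55.1% of genes that rose and 64.0% that fell, and H3K27ac at 48.9% and 61.2%; a 5 kb window gave 82.6%, 90.5%, 66.4% and 78.9%. Values for genes with a start alone stand in the report. Of 3181 values of 201 named genes in labelled KO, 3010 kept direction and call, 130 lost the call, 36 gained it and 5 changed sign; of 812 values of differences, 786 kept both, 11 lost the call, 7 gained it and 8 changed sign. Calls of 27 named genes were lost with 1 library left out. Some values changed sign. With 1 library left out, the change was -0.77 to 0.0026 for Smtnl2, -0.029 to 0.77 for Tgfb3, -0.45 to 0.88 for Il9 and -0.66 to 0.0037 for Ly6c2, and the difference -0.083 to 0.71 for Tbx21 and -0.58 to 0.22 for Il18r1 (0.21 and 0.08 without labelled KO and WT Th2-Th1 replicate 1); Il9 was also at -0.34 without Th2-Th1 replicate 2. By edgeR and DESeq2, the difference was -0.44 and -0.47 for Tbx21 and 0.059 and 0.13 for Il18r1. The cause was not tested. Low genes are limited by depth, which is lowest in WT Th2.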
